A study of Mus musculus with 9 samples.

Results

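The genes described here are 34 genes of serine synthesis, of the response to amino acid shortage that the transcription factor ATF4 drives, and of the stress response of the endoplasmic reticulum (ER). They were taken by name: each probe set of the array, a group of short probes for one transcript, whose annotated symbol is one of the 34 was found, and each gene was read on its probe set with the highest mean over the 9 arrays. Of the 34 genes, 33 were named on the array, by 65 probe sets, and Pycr1, the last enzyme of proline synthesis, was not. The brightest probe set of 28 of the 33 passed the filter on dim signals, among 8201 of 12393 genes with a symbol of their own. The 5 that did not are Trib3, Chac1, Slc7a11, Slc7a1 and Ppp1r15a. Whole-tissue RNA of the proximal colon was measured, so fewer cells of a type and less RNA per cell cannot be told apart.

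Gene expression had been measured in 3 mutant, 3 heterozygous and 3 wild-type mice, each on 1 Affymetrix array. Genotype refers to cSHMT, cytosolic serine hydroxymethyltransferase, the product of Shmt1, which passes a one-carbon unit from serine to tetrahydrofolate and yields glycine. What was done to the allele is not given in the sources used here. All mice, wild-type included, were C57Bl/6 after 10 generations of backcrossing, were 9 weeks old, and had eaten a purified diet lacking folate and choline since weaning at 3 weeks, for 6 weeks by one label and 5 weeks by another, so no group shows the genes on a complete diet. The colons were labelled as biological replicates, and precision is limited by there being 3 arrays for each genotype. A value after ± is the SD over the 3 arrays of a genotype. Signals are the deposited linear values, and differences are log2 fold changes from quantile-normalized values, tested with limma over 13576 probe sets with Benjamini-Hochberg adjustment. Signals of different probe sets are not comparable with each other.

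Shmt1 followed the labels, with a mean signal on its probe set brightest in wild-type colons of 117 ± 3.46 in mutant, 303 ± 31.6 in heterozygous and 595 ± 43.2 in wild-type colons (log2 fold change -2.19 in mutant, limma adjusted p = 2.64e-05, and -0.94 in heterozygous against wild-type, adjusted p = 0.232). That probe set was chosen by its wild-type signal. On the Shmt1 probe set brightest by overall mean, all mutant arrays lay below all wild-type arrays (-0.89, adjusted p = 0.596). There heterozygous and wild-type arrays overlapped (-0.25). Several markers of colon epithelium were bright in every array, among them Car1 (lowest signal 4901), Guca2a (5766) and the goblet cell genes Tff3 (5881) and Agr2 (5761). Other epithelial markers were dimmer, such as Scnn1a (165.8 to 326.8) and Aqp8, which ran from 30 to 645.8 over the arrays. The beta-actin ratio, the signal of its 3' over that of its 5' control probe set, grows as RNA is shortened. It was 4.84, 4.45 and 5.02 in the mutant, heterozygous and wild-type arrays numbered 1 and 2.52 to 3.75 in the other 6.

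Serine is made from a glycolytic intermediate by Phgdh, Psat1 and Psph, and it is the substrate that SHMT enzymes use to load folate with one-carbon units. When amino acids run short or unfolded proteins gather in the ER, kinases phosphorylate the translation factor eIF2, most translation slows, and the mRNA of Atf4 is translated more. ATF4 then switches on genes of serine and asparagine synthesis, amino acid uptake and, with Ddit3 (CHOP), stress signalling. The ER has further sensors that act through Xbp1 and Atf6 and raise chaperones such as Hspa5 (BiP). ATF4 is controlled largely at translation, so its mRNA level says less about it than the mRNA of its targets. Goblet cells of the colon secrete much mucin and depend on this ER machinery.

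The DNA elements of these programmes can be read in the promoters of the members. RefSeq (build GRCm38.p6) gave 34 promoters, each 250 bases before to 50 after a start site, for 31 of the 34 genes. Slc7a5, Eif4ebp1 and Hyou1 had none. Searched on both strands, the ER stress element ERSE (CCAAT, any 9 bases, CCACG) was found in Hspa5, Hsp90b1 and Calr and in 0.119% of all 32851 promoters. ERSE-II (ATTGG, any 1 base, CCACG) was found in Herpud1 and in 0.0365% of all. TGATGNAAN, the element that ATF4 binds with a C/EBP partner, was found in 9 of the 31 genes, namely Asns, Atf3, Chac1, Herpud1, Nupr1, Pck2, Pycr1, Slc7a11 and Trib3, and in 3.95% of all promoters. The letters TGACGTGG, an element of the unfolded protein response, were in none of these windows and in 0.676% of all. No match overlapped one of another element. A match is a description of the letters, not of binding. The promoters with an ERSE or ERSE-II and that of Asns are printed 5′ to 3′ on the gene's strand, with the matches in capitals, because the results on chaperones and on Asns refer to them. They lie at chr2:34771840-34772139, plus strand (Hspa5), at chr10:86705395-86705694, minus strand (Hsp90b1), at chr8:84846882-84847181, minus strand (Calr), at chr8:94386179-94386478, plus strand (Herpud1) and at chr6:7693160-7693459, minus strand (Asns).
Hspa5: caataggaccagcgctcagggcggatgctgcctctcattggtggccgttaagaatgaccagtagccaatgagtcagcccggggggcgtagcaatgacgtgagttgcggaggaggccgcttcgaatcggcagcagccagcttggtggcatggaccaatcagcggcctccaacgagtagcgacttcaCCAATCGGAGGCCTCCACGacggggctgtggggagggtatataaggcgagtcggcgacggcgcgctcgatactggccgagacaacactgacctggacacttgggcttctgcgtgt
Hsp90b1: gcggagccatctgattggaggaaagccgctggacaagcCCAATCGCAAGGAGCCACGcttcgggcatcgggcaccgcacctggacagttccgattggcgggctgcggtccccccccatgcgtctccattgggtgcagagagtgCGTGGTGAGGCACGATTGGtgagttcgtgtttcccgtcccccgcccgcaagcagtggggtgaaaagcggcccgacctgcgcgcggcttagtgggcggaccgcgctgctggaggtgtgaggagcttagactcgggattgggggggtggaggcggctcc
Calr: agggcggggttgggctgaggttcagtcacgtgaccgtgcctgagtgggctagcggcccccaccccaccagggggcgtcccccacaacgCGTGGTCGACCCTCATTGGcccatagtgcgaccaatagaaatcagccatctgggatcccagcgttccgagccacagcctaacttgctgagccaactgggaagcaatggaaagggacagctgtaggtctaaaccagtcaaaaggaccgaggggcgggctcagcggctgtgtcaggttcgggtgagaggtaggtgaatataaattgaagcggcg
Herpud1: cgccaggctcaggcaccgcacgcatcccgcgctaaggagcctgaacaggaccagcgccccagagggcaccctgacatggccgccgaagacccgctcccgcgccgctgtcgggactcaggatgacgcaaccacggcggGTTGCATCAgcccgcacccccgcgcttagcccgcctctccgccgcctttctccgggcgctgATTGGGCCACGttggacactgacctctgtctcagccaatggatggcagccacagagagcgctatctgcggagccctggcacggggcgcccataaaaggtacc
Asns: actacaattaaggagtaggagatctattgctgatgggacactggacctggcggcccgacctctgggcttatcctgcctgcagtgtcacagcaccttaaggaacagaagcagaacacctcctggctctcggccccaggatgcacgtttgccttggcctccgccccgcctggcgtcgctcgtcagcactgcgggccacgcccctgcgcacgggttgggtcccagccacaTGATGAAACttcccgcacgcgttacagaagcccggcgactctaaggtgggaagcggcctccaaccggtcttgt

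Mutant and heterozygous colons were each compared with wild-type, as the study's design states, and mutant with heterozygous to test the difference of those effects. None of the 28 genes passed an adjusted p of 0.05 in limma's test in any of the 3 comparisons, where the share of all probe sets that passed was 0.0221% for mutant and 0% for heterozygous colons against wild-type and 0.0221% in mutant against heterozygous. The smallest adjusted p among the members was 0.998, 0.483 and 0.617 in that order. At an unadjusted p under 0.05 there were 1 of 28 members in mutant against wild-type (Aldh18a1), beside 3.84% of all probe sets. There were 2 in heterozygous against wild-type (Aldh18a1 and Hspa5), beside 8.01%, and 3 in mutant against heterozygous (Ddit4, Hspa5 and Dnajb9), beside 7.56%. The member shares were 3.57%, 7.14% and 10.7%, where a single gene makes 3.57%, so none is far from the share of all probe sets. The comparisons share arrays pairwise and are not independent of each other.

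On the deposited signals, before quantile normalization, the genotypes separated without overlap on few members. No member had its 3 mutant arrays above all 3 wild-type arrays, where 4.04% of probe sets did, and 1 lay below (Sesn2), where 2.95% did. For heterozygous against wild-type 1 member was above (Gpt2), beside 6.03% of probe sets, and 3 were below (Sesn2, Hspa5 and Edem1), beside 5.9%. For mutant against heterozygous 1 was above (Hspa5), beside 5.75%, and 1 below (Dnajb9), beside 4.59%.

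The spread of the arrays left room for moderate changes but not for large ones on most members. In mutant against wild-type, the 95% interval of the fold change lay within 2-fold up or down for 27 of the 28 genes, and in heterozygous against wild-type for 27. Aldh18a1 was the exception in both. In mutant against heterozygous all 28 intervals did. The log2 fold changes ran from -0.32 (Ddit4) to 0.63 (Aldh18a1) in mutant against wild-type, with a median of 0.00027 beside 0.0036 over all probe sets. They ran from -0.37 (Hspa5) to 0.59 (Aldh18a1) in heterozygous against wild-type, with a median of -0.01 beside -0.0044. In mutant against heterozygous they ran from -0.41 (Ddit4) to 0.28 (Asns), with a median of 0.04 beside 0.0013.

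**Figure D1:**
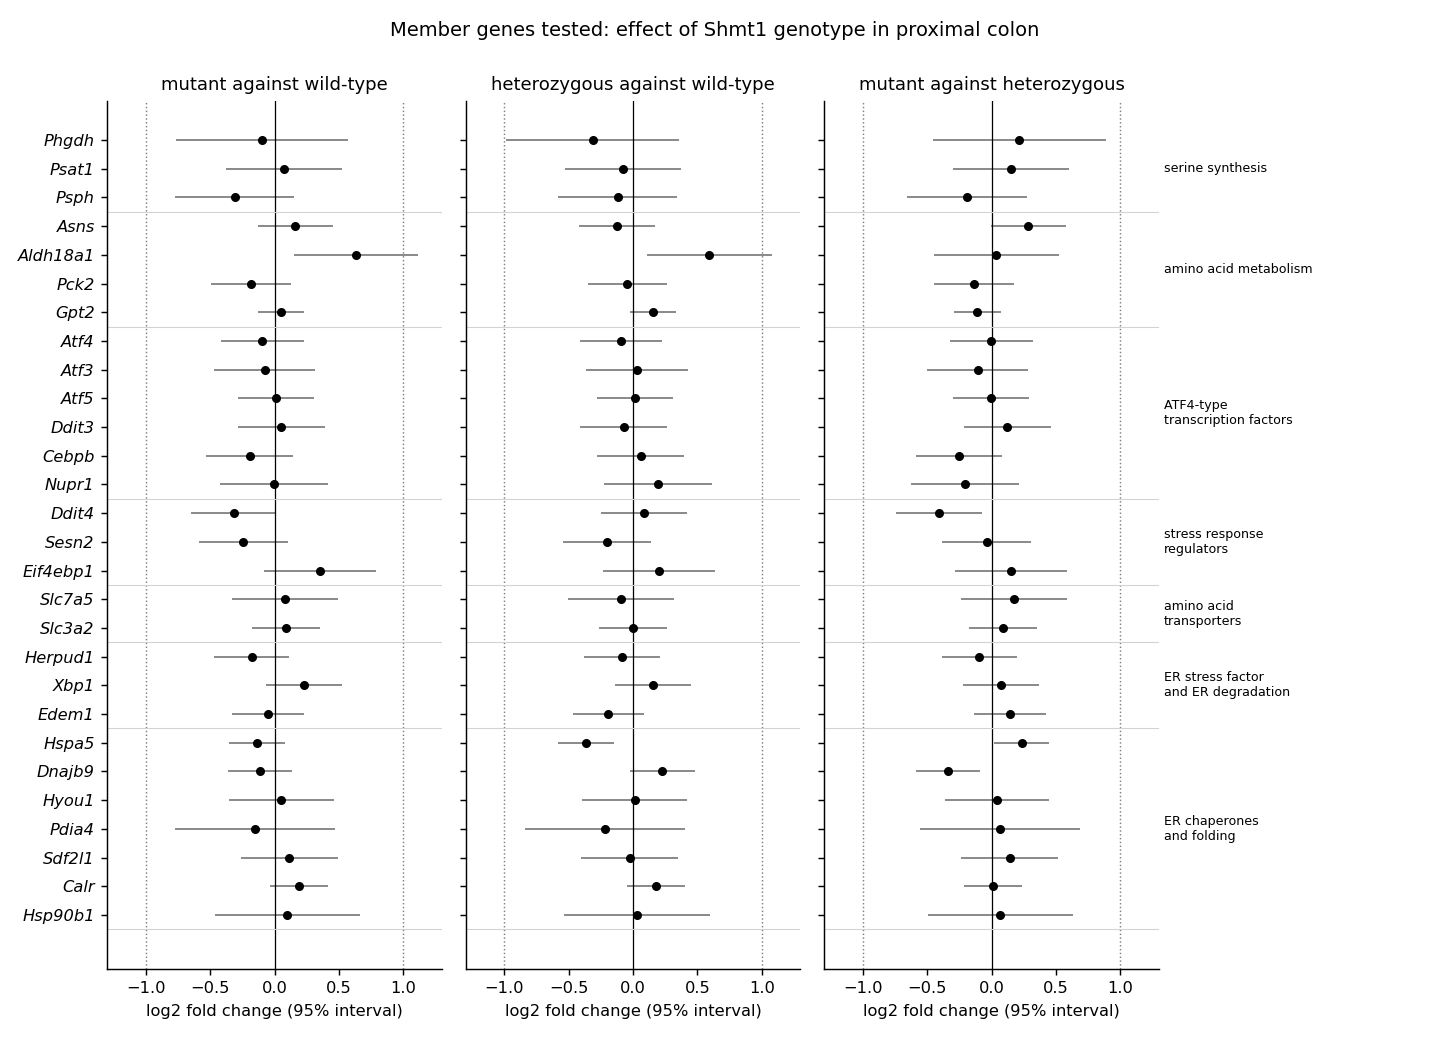
Log2 fold change (points) and 95% interval (bars) of the 28 member genes tested, grouped by role, in mutant against wild-type, heterozygous against wild-type and mutant against heterozygous colons. Dotted lines mark a 2-fold change up or down, which only the intervals of Aldh18a1 cross, at 1.11 and 1.08.

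Serine synthesis was not detectably different between genotypes. None of its 3 enzymes passed, and the median log2 fold change was -0.10 in mutant and -0.12 in heterozygous colons, each against wild-type. Phgdh, the dehydrogenase of the first step, read 796, 1003 and 829 in mutant colons, 1073, 751 and 543 in heterozygous colons and 1380, 1007 and 611 in wild-type colons. Wild-type arrays alone spanned more than 2-fold, and the values of all 3 genotypes overlapped. Both sets of carrier mice averaged below wild-type, whose own SD was 384 around 999. Its log2 fold change was -0.10 (SE 0.305, 95% interval -0.77 to 0.57, adjusted p = 0.998) in mutant and -0.31 (95% interval -0.98 to 0.36, adjusted p = 0.818) in heterozygous against wild-type colons. Without the 3 arrays numbered 1, which include the 2 highest Phgdh values, its sign turned in mutant against wild-type, to 0.22 (adjusted p = 0.975). The next 2 probe sets of Phgdh had values of -0.07 and -0.30 in mutant and -0.31 and -0.42 in heterozygous colons against wild-type. All 4 probe sets with that symbol alone end in _x_at, Affymetrix's mark for probes that may bind other sequences, and 2 further ones list Phgdh together with predicted genes and were not used.

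Psat1, the aminotransferase of the second step, read 371, 338 and 467 in mutant colons, 449.7, 331 and 286 in heterozygous colons and 404.5, 353 and 351 in wild-type colons, so the wild-type values lay inside the range of both other genotypes. Its log2 fold change was 0.07 (95% interval -0.38 to 0.52) in mutant and -0.08 (-0.53 to 0.37) in heterozygous colons against wild-type. On its other probe set the mutant value had the other sign, -0.19. Psph, the phosphatase that releases serine, read 123.5, 90.2 and 185 in mutant colons, 155, 159 and 144 in heterozygous colons and 183, 167 and 145 in wild-type colons. In deposited signal mutant 2 was the lowest and mutant 3 the highest of the 9 arrays, so the mutant colons surrounded the rest. After quantile normalization mutant 2 was still the lowest, but wild-type 1 was the highest. The log2 fold change of Psph was -0.31 (SE 0.211, adjusted p = 0.998) in mutant against wild-type.

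**Figure D2:**
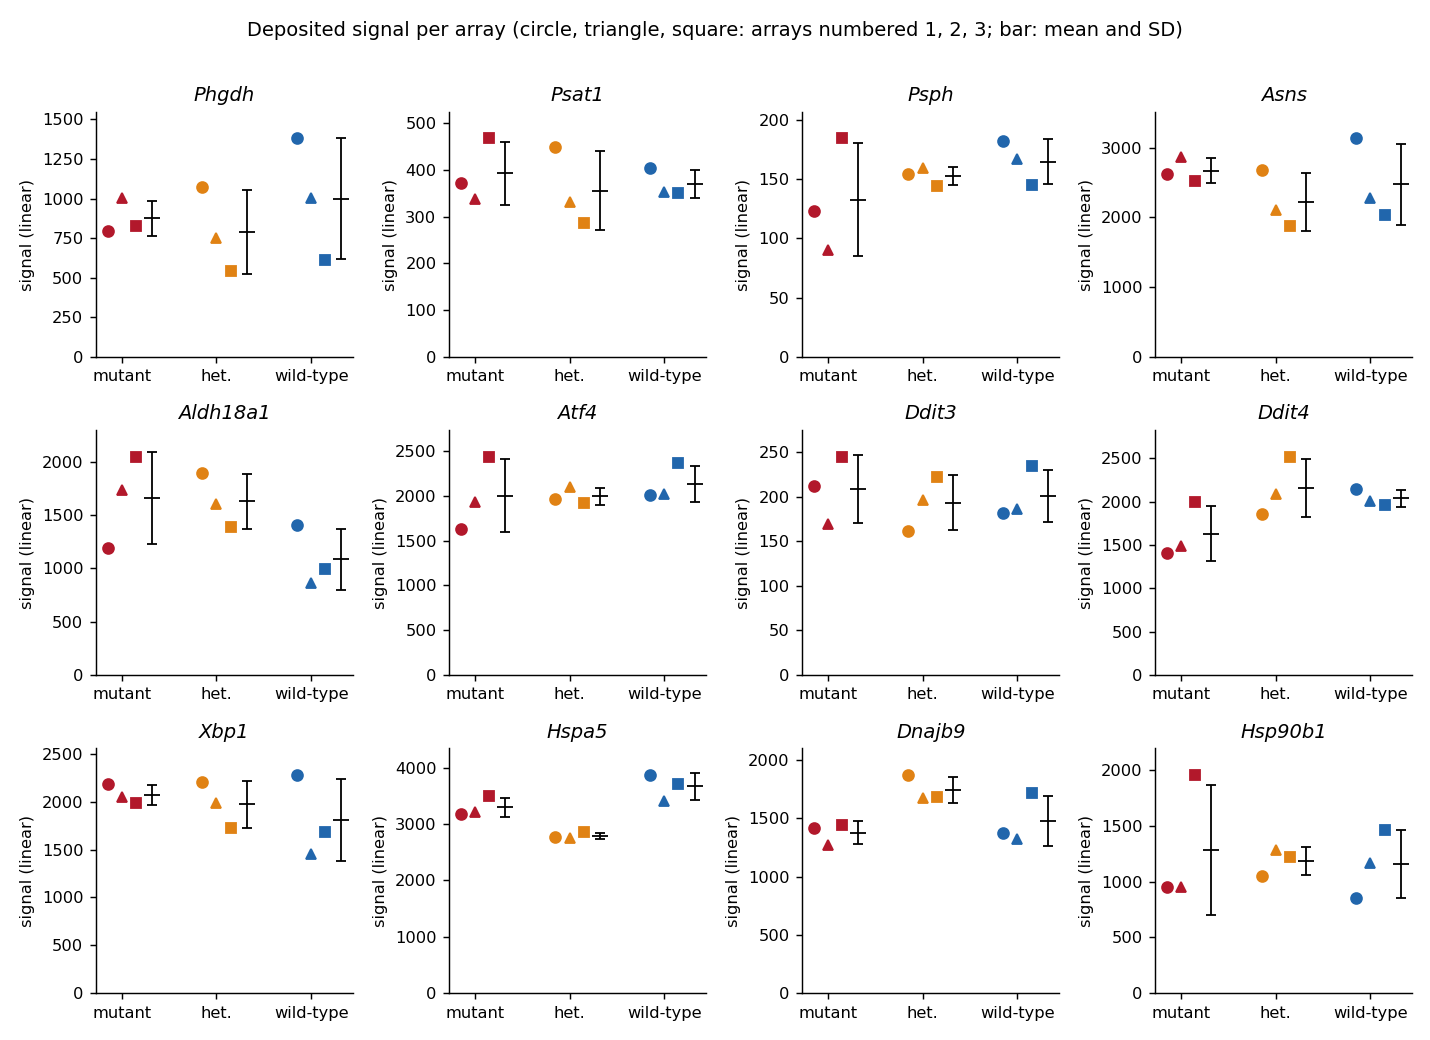
Deposited linear signal of 12 member genes in each array, with mutant colons on the left, heterozygous colons in the middle and wild-type colons on the right; the circle, triangle and square are the arrays numbered 1, 2 and 3, and the bar is the mean with its SD. Hspa5 is the gene whose heterozygous values (2755 to 2848) lie below all other arrays, and in Hsp90b1 mutant 3 lies apart at 1963.

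Among the enzymes of amino acid metabolism, Aldh18a1, which makes the precursor of proline and ornithine from glutamate, had the highest log2 fold changes of all members against wild-type, in both mutant and heterozygous colons, and 0.04 in mutant against heterozygous. It read 1195, 1734 and 2051 in mutant colons, 1895, 1606 and 1386 in heterozygous colons and 1409, 860 and 991 in wild-type colons. Both carrier genotypes averaged above wild-type, while mutant 1 and heterozygous 3 lay below wild-type 1. The log2 fold change was 0.63 (SE 0.22, unadjusted p = 0.0152, adjusted p = 0.998) in mutant and 0.59 (SE 0.22, unadjusted p = 0.0207, adjusted p = 0.584) in heterozygous against wild-type. When arrays far from the fit counted for less (array weights), it passed in heterozygous against wild-type, at 0.83 (adjusted p = 0.038), and not in mutant (0.84, adjusted p = 0.107). That setting also raised the count of all probe sets passing in heterozygous against wild-type, as given in the closing section, so the pass is not particular to this gene. Without the 3 arrays numbered 1 the mutant value was 1.06 (adjusted p = 0.077).

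The 5 probe sets of Aldh18a1 did not give one answer. The third in brightness, the only one not marked _x_at, read 614 ± 128 in mutant, 518 ± 85.9 in heterozygous and 597 ± 51.1 in wild-type colons, with log2 fold changes of 0.02 and -0.22 for mutant and heterozygous against wild-type. On the dimmest the 3 arrays of each carrier genotype lay above all wild-type arrays, as 4.04% of all probe sets did for mutant and 6.03% for heterozygous colons. It averaged 193 ± 65.3 in mutant, 269 ± 134 in heterozygous and 126 ± 5.14 in wild-type colons (log2 fold change 0.53 in mutant, 0.89 in heterozygous). The other 2 lay between, at 0.25 and 0.23 in mutant and 0.05 and 0.02 in heterozygous colons. Which probe set reads the gene best was not tested.

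Asns, which makes asparagine and whose promoter holds the ATF4 element printed above, read 2619, 2869.5 and 2523 in mutant colons, 2676, 2110 and 1877 in heterozygous colons and 3135, 2273.5 and 2030.3 in wild-type colons. In deposited signal the 3 mutant colons lay close together, inside the range of the wild-type colons. After quantile normalization mutant 2 was the highest of all arrays. Its log2 fold change was 0.16 (SE 0.133, 95% interval -0.13 to 0.45) in mutant and -0.12 (-0.42 to 0.17) in heterozygous against wild-type. In mutant against heterozygous it was 0.28 (adjusted p = 0.668), and its other probe set had the same sign in each comparison. Gpt2, the mitochondrial alanine aminotransferase, read 2090.3, 1911 and 1847 in mutant colons, 2148, 2042.5 and 2065 in heterozygous colons and 2034, 1921 and 1688 in wild-type colons. The heterozygous arrays lay above the wild-type ones by a small margin there, but not on its other 2 probe sets, though the sign was the same on all 3 (log2 fold change 0.16, 0.24 and 0.12). Gpt2 in mutant against heterozygous was -0.11, -0.39 and -0.32 on these probe sets (limma unadjusted p = 0.206, 0.0122 and 0.0281, adjusted p = 0.751, 0.611 and 0.649). On the second, all mutant arrays lay below all heterozygous arrays, beside 4.59% of all probe sets. Pck2, the mitochondrial enzyme that makes phosphoenolpyruvate, averaged 862 ± 88 in mutant, 947 ± 91.8 in heterozygous and 977 ± 104 in wild-type colons. Of the 5 tested genes with the ATF4 element (Asns, Atf3, Herpud1, Nupr1 and Pck2), 1 had a log2 fold change above 0 in mutant against wild-type, and the 5 values ran from -0.18 to 0.16. They ran from -0.12 (Asns) to 0.20 (Nupr1) in heterozygous against wild-type and from -0.20 (Nupr1) to 0.28 (Asns) in mutant against heterozygous.

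None of the 6 transcription factors and nuclear stress proteins passed, and in mutant against wild-type 2 were above and 4 below 0. Atf4 read 1632, 1935 and 2443 in mutant colons, 1966, 2105 and 1918 in heterozygous colons and 2009.6, 2025 and 2364.5 in wild-type colons, and the genotypes overlapped. Its log2 fold change was -0.09 (95% interval -0.41 to 0.22) in mutant and -0.09 (-0.41 to 0.23) in heterozygous against wild-type. A dimmer probe set of Atf4, marked _x_at, stood otherwise: it read 817, 561 and 911 in mutant colons, 1094.5, 898 and 967 in heterozygous colons and 698, 674 and 646 in wild-type colons. On it all heterozygous arrays exceeded all wild-type arrays (log2 fold change 0.52, unadjusted p = 0.0134, adjusted p = 0.583), while mutant arrays lay on both sides of them (0.14).

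Ddit3, which encodes the factor CHOP, read 211.5, 169 and 245 in mutant colons, 161, 197 and 222 in heterozygous colons and 182, 186 and 235 in wild-type colons. No genotype stood apart, and the log2 fold change was 0.05 (95% interval -0.29 to 0.39) in mutant and -0.07 (-0.41 to 0.26) in heterozygous against wild-type. Cebpb, a partner of ATF4 on DNA, read 185, 211 and 299 in mutant colons, 289, 266 and 279 in heterozygous colons and 277, 266 and 254 in wild-type colons. In deposited signal mutant 1 and 2 were the lowest arrays, but mutant 3 was the highest. After quantile normalization heterozygous 1 was the highest. The log2 fold change was -0.19 (adjusted p = 0.998) in mutant against wild-type and -0.25 (adjusted p = 0.714) in mutant against heterozygous. Atf3 and Atf5, relatives of ATF4, had log2 fold changes of -0.08 and 0.01 in mutant and 0.03 and 0.01 in heterozygous against wild-type. Nupr1, a small stress-induced nuclear protein, averaged 4251 ± 1228 in mutant, 4607 ± 642 in heterozygous and 4324 ± 1139 in wild-type colons.

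Of the 6 regulators downstream, 3 were bright enough to test and none passed. Ddit4, an inhibitor of the growth kinase complex mTORC1, read 1405, 1488 and 1994 in mutant colons, 1862, 2087 and 2520 in heterozygous colons and 2147.5, 2001 and 1960.2 in wild-type colons. Mutant 1 and 2 were lower than every other array, and mutant 3 lay between wild-type arrays. The log2 fold change was -0.32 (SE 0.152, unadjusted p = 0.0588, adjusted p = 0.998) in mutant against wild-type and -0.41 (unadjusted p = 0.0211, adjusted p = 0.648) in mutant against heterozygous. Sesn2, another mTORC1 inhibitor, read 109, 89.2 and 112 in mutant colons, 114.5, 102 and 114.5 in heterozygous colons and 117, 143 and 120.1 in wild-type colons. Its wild-type arrays were above those of both carrier genotypes by a narrow gap, at signals not far above the filter, whose limit was 75.5. The log2 fold change of Sesn2 was -0.24 (adjusted p = 0.998) in mutant and -0.20 (adjusted p = 0.756) in heterozygous against wild-type. Eif4ebp1, which holds back cap-dependent translation, read 1005, 1295 and 1031.5 in mutant colons, 1065, 1078 and 879 in heterozygous colons and 1174, 745.5 and 739.9 in wild-type colons, with a log2 fold change of 0.35 (SE 0.198, adjusted p = 0.998) in mutant against wild-type. Wild-type 1 lay among the carriers and kept the genotypes overlapping.

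The members under the filter are targets that ATF4 induces, and they were dim in every array. Trib3, a pseudokinase, averaged 37.8 ± 13.2 in mutant, 39.2 ± 13.6 in heterozygous and 36.4 ± 2.62 in wild-type colons. Chac1, which breaks down glutathione, averaged 55.5 ± 15.7 in mutant, 43.7 ± 5.73 in heterozygous and 50.6 ± 7.9 in wild-type colons, and Ppp1r15a, which brings a phosphatase to eIF2, 50.1 ± 5.42 in mutant, 54.4 ± 15.8 in heterozygous and 42.6 ± 5.89 in wild-type colons. Slc7a11, the cystine importer, averaged 14 ± 4.56 in mutant, 12.8 ± 2.13 in heterozygous and 19 ± 3.53 in wild-type colons, and Slc7a1, an importer of basic amino acids, 3.3 ± 1.83 in mutant, 3.9 ± 1.91 in heterozygous and 3.47 ± 3.88 in wild-type colons. Over these 5 genes no array exceeded 72.6 signal units, and no fold is given for them, since values this dim were not tested.

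Of the amino acid transporters, Slc7a5 and Slc3a2, the light and heavy chain of a carrier of large neutral amino acids, were tested and did not pass. Slc7a5 averaged 181 ± 57.1 in mutant, 158 ± 3.55 in heterozygous and 169 ± 34.7 in wild-type colons (log2 fold change 0.08 in mutant and -0.10 in heterozygous against wild-type). Slc3a2 averaged 1244 ± 128 in mutant, 1174 ± 105 in heterozygous and 1160.4 ± 73.5 in wild-type colons (0.09 and -0.00083). Both had 95% intervals that included 0 in each comparison.

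Xbp1, the factor whose mRNA the ER sensor IRE1 splices, read 2180.4, 2047 and 1983 in mutant colons, 2211, 1986 and 1721 in heterozygous colons and 2284, 1452 and 1678 in wild-type colons. The mutant arrays lay inside the wild-type range, with a log2 fold change of 0.23 (95% interval -0.07 to 0.52). Its 4 probe sets had values from 0.04 to 0.23 in mutant against wild-type. For heterozygous colons the brightest (0.15) and the other 3 (-0.16 to -0.14) differed in sign. The arrays do not separate spliced from unspliced Xbp1. Herpud1, an ER membrane protein of the degradation pathway, averaged 1940.5 ± 329 in mutant, 2072 ± 319 in heterozygous and 2201 ± 279 in wild-type colons (log2 fold change -0.18 and -0.09 against wild-type). Edem1, which sends misfolded glycoproteins to degradation, read 459, 595 and 500.3 in mutant colons, 408, 497 and 494 in heterozygous colons and 519.7, 571 and 506 in wild-type colons. Its heterozygous arrays lay just under all wild-type arrays on that probe set (log2 fold change -0.19, adjusted p = 0.717) and not on its other one (0.16).

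Among the 7 ER chaperones and folding enzymes, Hspa5 stood out in heterozygous colons. Hspa5 encodes BiP, the main Hsp70 chaperone of the ER, and read 3178, 3212 and 3491 in mutant colons, 2764, 2755 and 2848 in heterozygous colons and 3875, 3404.5 and 3713 in wild-type colons. The heterozygous arrays differed little among themselves (SD 51.2) and lay below all 6 other arrays, and mutant 3 reached the wild-type values. The log2 fold change was -0.37 (SE 0.0984, unadjusted p = 0.0032, adjusted p = 0.483) in heterozygous and -0.13 (SE 0.0984, adjusted p = 0.998) in mutant against wild-type. The difference between these effects, mutant against heterozygous, was 0.23 (unadjusted p = 0.037, adjusted p = 0.654). On the second probe set of Hspa5 the signals averaged 2489 ± 452 in mutant, 2248 ± 27.3 in heterozygous and 2714 ± 280.5 in wild-type colons, again with the 3 heterozygous arrays below the wild-type ones (log2 fold change -0.26, limma unadjusted p = 0.0866, adjusted p = 0.662). They were not below all mutant arrays there, since mutant 2 read 2098 and was lower than each of them.

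The other 6 genes of the group had log2 fold changes from -0.22 (Pdia4) to 0.23 (Dnajb9) in heterozygous against wild-type. Dnajb9, the ER co-chaperone ERdj4 that works with BiP, read 1419.9, 1268 and 1446 in mutant colons, 1877, 1675 and 1685 in heterozygous colons and 1378, 1325 and 1720.1 in wild-type colons. Its heterozygous arrays lay above all mutant arrays, the reverse of Hspa5, and wild-type 3 reached them. The log2 fold change of Dnajb9 was -0.34 (SE 0.114, unadjusted p = 0.0124, adjusted p = 0.617) in mutant against heterozygous and 0.23 (adjusted p = 0.643) in heterozygous against wild-type. The 3 genes with an ERSE in the promoters printed above did not share a sign against wild-type. In heterozygous against wild-type Hspa5 had -0.37, Hsp90b1 0.03 and Calr 0.18. In mutant against wild-type they had -0.13, 0.10 and 0.19. All 3 were above 0 in mutant against heterozygous, at 0.23, 0.07 and 0.01.

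Calr, the calcium-binding lectin chaperone calreticulin, read 5425, 4208.5 and 4924 in mutant colons, 5959, 4017 and 4563.5 in heterozygous colons and 4666, 4399.7 and 3881 in wild-type colons on its brightest probe set, with overlapping genotypes (log2 fold change 0.19 in mutant and 0.18 in heterozygous against wild-type). The second had lower values (0.12 and 0.08). The third, and the only one not marked _x_at, read 2456, 2214 and 3054.5 in mutant colons, 3206, 2567 and 2369 in heterozygous colons and 1748, 1805 and 1929.5 in wild-type colons. There all 3 mutant arrays lay above all 3 wild-type arrays, beside 4.04% of all probe sets, and so did all 3 heterozygous arrays, beside 6.03%. Its log2 fold change was 0.49 (SE 0.139, unadjusted p = 0.00492, adjusted p = 0.998) in mutant and 0.55 (unadjusted p = 0.00236, adjusted p = 0.483) in heterozygous colons, and the same 3 wild-type arrays served both. This probe set was singled out after its values were seen.

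Hsp90b1, the ER form of Hsp90 (GRP94), averaged 1289 ± 584 in mutant, 1186 ± 123 in heterozygous and 1161 ± 306 in wild-type colons, and Pdia4, a disulfide isomerase, 225 ± 121 in mutant, 203 ± 16.4 in heterozygous and 249 ± 109.9 in wild-type colons. Hyou1, a large ER chaperone that acts on BiP, averaged 483 ± 62 in mutant, 477 ± 93 in heterozygous and 469 ± 105 in wild-type colons, and Sdf2l1, an ER protein that joins chaperone complexes, 428 ± 114 in mutant, 383 ± 21.2 in heterozygous and 390.5 ± 68.5 in wild-type colons. The genotypes overlapped on these 4 genes. Their log2 fold changes lay between -0.15 (Pdia4) and 0.11 (Sdf2l1) in mutant and between -0.22 (Pdia4) and 0.03 (Hsp90b1) in heterozygous against wild-type. Over the 7 genes of this group the medians were 0.05 and 0.01.

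Many of the members are read by several probe sets, and these did not always point one way. Of 16 members with more than 1 tested probe set, all probe sets of a gene had the same sign in 11 genes for mutant against wild-type, in 9 for heterozygous against wild-type and in 10 for mutant against heterozygous. Over the 52 tested probe sets none passed. The probe set chosen by brightness is marked _x_at in 6 of the 33 genes (Phgdh, Asns, Trib3, Aldh18a1, Eif4ebp1 and Calr) and _s_at, for probes shared by transcripts of more than 1 sequence, in 4 (Psat1, Gpt2, Xbp1 and Hyou1).

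**Figure D3:**
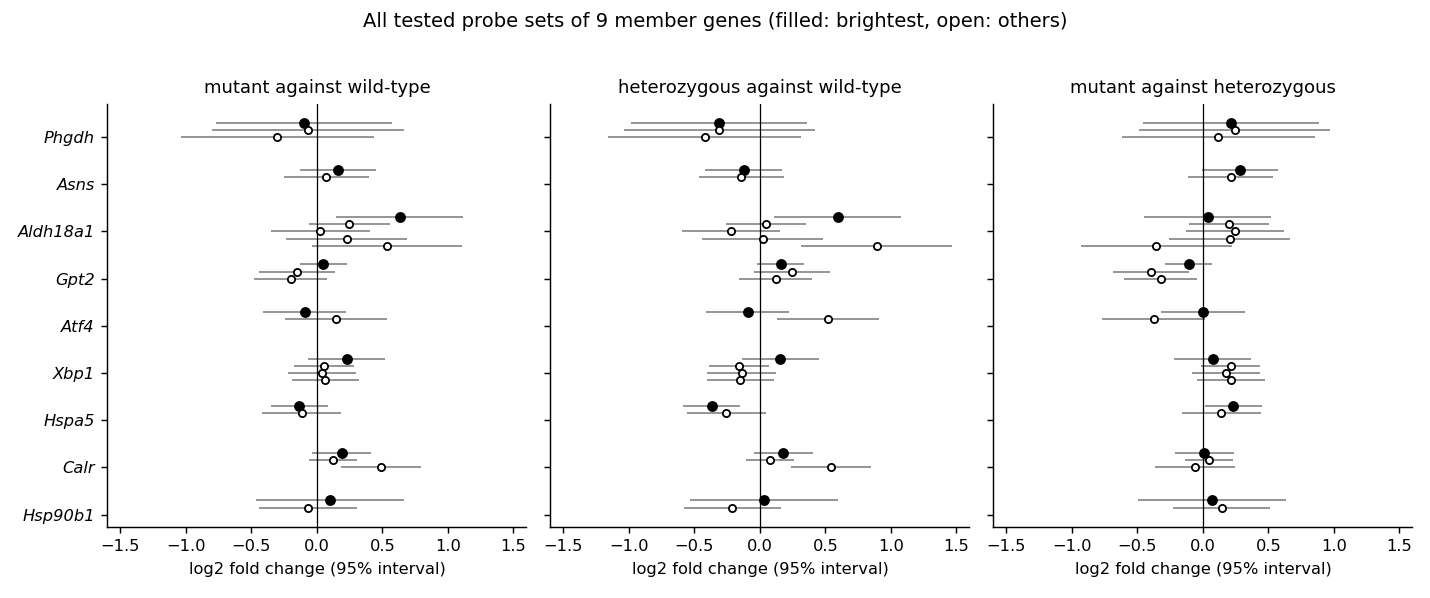
Log2 fold change and 95% interval of every tested probe set of 9 member genes in mutant against wild-type, heterozygous against wild-type and mutant against heterozygous colons; filled points are the brightest probe set of a gene and open points its others, in order of brightness downwards. The probe sets of Aldh18a1 spread from -0.22 to 0.89 in heterozygous against wild-type, while those of Hspa5 lie at -0.37 and -0.26.

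The members varied somewhat more between mice of one genotype than the tested probe sets as a whole. The SD of log2 signal within genotypes had a median of 0.206 over the 28 members and 0.173 over all probe sets tested, and 20 of the 28 exceeded that of all probe sets. The widest were Phgdh (0.485), Pdia4 (0.433), Hsp90b1 (0.406) and Aldh18a1 (0.343), and the narrowest Gpt2 (0.0749). The highest array read less than 2-fold above the lowest for 23 of the 28.

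Pdia4 read 139, 171 and 363 in mutant colons, 184, 210.3 and 214 in heterozygous colons and 142, 243.5 and 362 in wild-type colons, and Hsp90b1 948, 955.5 and 1963 in mutant colons, 1050.2, 1289 and 1219.8 in heterozygous colons and 851, 1168 and 1464 in wild-type colons. Both genes were named here after their spread was seen. Mutant 3 and wild-type 3 were the highest arrays of both. The median deviation of the 7 chaperones from their own mean over 9 arrays was -0.09, -0.11 and 0.27 in mutant, 0.12, -0.08 and -0.10 in heterozygous and -0.11, -0.04 and 0.25 in wild-type colons 1, 2 and 3. Serine synthesis had another order, with -0.01, -0.14 and 0.17 in mutant, 0.36, -0.19 and -0.43 in heterozygous and 0.45, 0.09 and -0.14 in wild-type colons. The beta-actin ratio was 2.73 in mutant 3 and 2.52 in wild-type 3, where the chaperones were high, but also low, at 2.57, in heterozygous 3, where they were not. It was 4.45 in heterozygous 1 and 5.02 in wild-type 1, where serine synthesis was highest, but also high, at 4.84, in mutant 1, where serine synthesis was at -0.01. The part of RNA shortening in these differences was not tested.

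**Figure D4:**
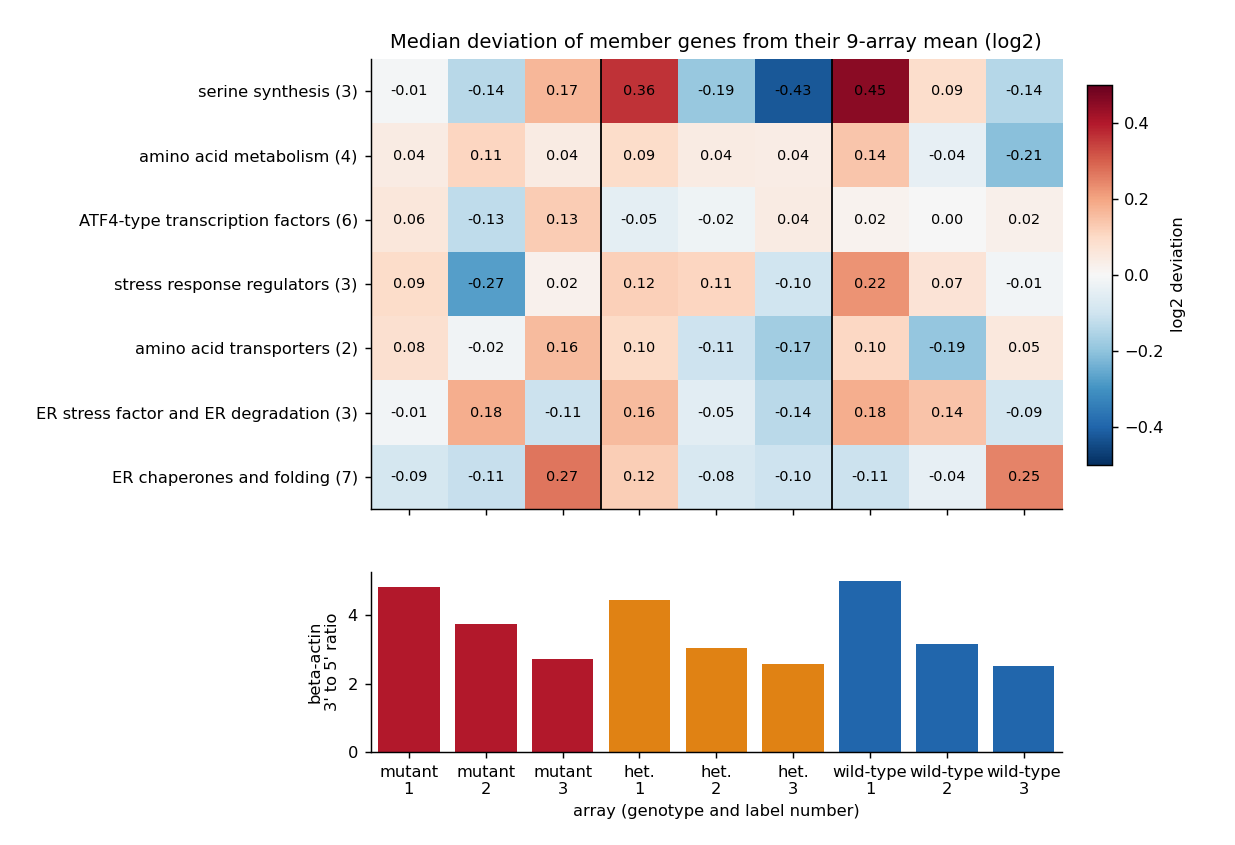
Median deviation of the tested members of each role from their mean over the 9 arrays (log2, colour and number; the count of genes is in parentheses) for mutant, heterozygous and wild-type arrays from left to right, above the beta-actin ratio, 3' over 5', of each array (bars). The chaperones are highest in mutant 3 (0.27) and wild-type 3 (0.25), and serine synthesis is highest in wild-type 1 (0.45) and heterozygous 1 (0.36).

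The same pathways reach beyond the 34 genes, and 6 further lists with 120 genes were set by their known roles. Of these genes 105 were named on the array and 96 tested, and none passed on its brightest probe set in any comparison. At an unadjusted p under 0.05 there were 2 in mutant against wild-type (2.08%), 5 in heterozygous against wild-type (5.21%) and 5 in mutant against heterozygous (5.21%), none of these shares above that of all probe sets. In mutant against wild-type the list medians were 0.01 for 15 genes of serine and glycine use, -0.03 for 11 eIF2 kinases and translation factors, -0.02 for 12 other ATF4 targets, 0.04 for 15 aminoacyl-tRNA synthetases, -0.05 for 11 ER stress sensors and partners and -0.05 for 32 other genes of ER folding, transport and degradation. In heterozygous against wild-type they were -0.08, -0.11, -0.0038, -0.12, -0.05 and -0.05 in the same order.

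The synthetases, which charge tRNA with amino acids and many of which ATF4 induces, had log2 fold changes above 0 in 0 of 15 genes in heterozygous against wild-type, where 49% of all probe sets were above 0. The 15 genes were read on the same arrays and are not independent of each other. Their median deviation from the mean over 9 arrays was 0.02, 0.05 and 0.19 in mutant, -0.03, -0.07 and -0.11 in heterozygous and 0.11, -0.02 and -0.01 in wild-type colons, so the 3 heterozygous arrays were the lowest of the 9. This was not particular to the synthetases. The heterozygous arrays were also the lowest for the eIF2 kinases and translation factors (-0.05, -0.10 and -0.07), where 3 of 11 genes were above 0 in heterozygous against wild-type. Of the other ER genes 10 of 32 were above 0 there. The synthetases were singled out after their values were seen. None of them passed in heterozygous against wild-type. Tars1 and Iars1, for threonine and isoleucine, had the smallest p there, with log2 fold changes of -0.24 and -0.27 (adjusted p = 0.646 and 0.652). In mutant against heterozygous, which shares the heterozygous arrays, 13 of 15 were above 0, beside 50.4% of all probe sets, with Iars1 at 0.35 (adjusted p = 0.649) and Gars1, for glycine, at 0.21 (adjusted p = 0.655). In mutant against wild-type 8 of 15 were above 0, beside 51% of all, led by Eprs1, for glutamate and proline, at 0.23 and Sars1, for serine, at 0.12 (adjusted p = 0.998 for both).

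Among the further ER genes, Pdia6, a disulfide isomerase that acts with BiP, averaged 651 ± 152 in mutant, 450.4 ± 41.8 in heterozygous and 613 ± 54 in wild-type colons. Its heterozygous arrays lay below all wild-type and all mutant arrays, with log2 fold changes of -0.44 (unadjusted p = 0.0149, adjusted p = 0.584) against wild-type and 0.50 (adjusted p = 0.573) for mutant against heterozygous. Sec61b, a subunit of the channel into the ER, had -0.15 in heterozygous against wild-type and 0.12 in mutant against heterozygous. Derl1, a channel of the degradation pathway, had 0.23 and Ssr1, a subunit of the translocon, 0.36 in mutant against wild-type. Creb3, an ER-bound transcription factor, had -0.18 and Atf6b, a relative of the sensor ATF6, -0.26 in heterozygous against wild-type, and Nfya, a subunit of the factor that binds the CCAAT part of an ERSE, -0.27 in mutant against wild-type, where Creb3 had -0.08. Atf6b in mutant against heterozygous had 0.31 and Mbtps1, a protease that cuts ATF6, 0.20. None of these passed.

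Of the other lists, the smallest p among genes of serine and glycine use was that of Shmt1 itself (log2 fold change -0.89, adjusted p = 0.596 on its brightest probe set by overall mean in mutant against wild-type). Slc38a1, an amino acid carrier, had 0.33 in mutant and 0.35 in heterozygous against wild-type, and Cbs, which joins serine to homocysteine, -0.24 in heterozygous against wild-type. Eif2ak2, the eIF2 kinase PKR, had -0.41 and Nck1, an adaptor that acts on eIF2 phosphorylation, -0.44 in mutant against wild-type. Eif2b1 and Eif2b4, subunits of the exchange factor for eIF2, had -0.22 and -0.16 in heterozygous against wild-type. Of the other ATF4 targets, Jdp2 (-0.35) and Cebpg (-0.18) led in mutant and Vegfa (0.31) and Cth (-0.15) in heterozygous against wild-type. The genes with the smallest p in mutant against heterozygous were Shmt1 (-0.64), Cbs (0.28), Eif2b1 (0.32), Eif2b4 (0.22), Cebpg (-0.22) and Sqstm1 (0.19), the autophagy receptor p62. Each of these probe sets missed the threshold.

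Secretory cells hold much of the ER of the colon wall, so their markers are given beside the ER genes. The summed signal of 10 goblet cell markers was 49284.5 to 64678.5 in mutant, 47322 to 56518 in heterozygous and 52873 to 68781 in wild-type colons, with median log2 fold changes of -0.03 in mutant and -0.04 in heterozygous against wild-type. The sum of 8 B and plasma cell markers was 4396 to 10621, 6036 to 8310.2 and 6444.5 to 10757.5 in mutant, heterozygous and wild-type colons (-0.14 and -0.13 for the 4 tested). Most of this sum came from Jchain, at 3908 to 7678 over all arrays, and Ighm, at 2.6 to 2864.8. In both lists the genotypes overlapped. Absorptive colonocytes had medians of -0.004 in mutant and -0.04 in heterozygous against wild-type, smooth muscle -0.01 and -0.17, T cells -0.57 and -0.54, macrophages -0.28 and -0.11, and adipocytes -0.60 and -0.19. The pancreatic markers Cela2a, Cpa1 and Ctrb1 had a highest signal of 13.9, and Cela1, which had a signal of at least 335, was the sole one tested. Its log2 fold change was 0.12 and -0.32, and Hbb-b2, the one blood marker tested, 0.12 and 0.14, in mutant and heterozygous against wild-type. The smooth muscle sum was 28799 to 35991 in mutant, 26618 to 30489 in heterozygous and 31485 to 34405.5 in wild-type colons. All heterozygous arrays lay below all wild-type arrays on it, as they did for Hspa5. The part of smooth muscle in the Hspa5 values was not tested. The adipocyte sum was 4039.5 to 8967 in mutant, 8366 to 11474 in heterozygous and 9009.5 to 12678 in wild-type colons, with all mutant arrays below all wild-type arrays. The summed T cell signal was 790 to 2244, 815 to 2014 and 1235 to 2626 in the same order, with overlap. The part of these cell types in the members' values was not tested.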

How the data were processed

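The 34 genes and all lists were chosen with earlier results of these data known. RNA of each colon (about 50 ng) was amplified with a NuGEN Ovation v2.0 kit and biotin-labelled, per the labels' protocols. The authors deposited intensities, 1 linear signal per probe set and array, made with GCOS per the submitters' processing notes. Its version and scaling were not given in the sources used here.

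Here 64 control probe sets were left out, 16 was added, log2 taken and arrays quantile-normalized, since their medians spread over 0.294 (log2). Adding 16 shrinks fold changes of dim probe sets. A mean at or above the 40th percentile kept 13576 of 22626 probe sets. Symbols came from the platform annotation, with 691 probe sets left unnamed for several symbols and 1555 for none; older synthetase symbols were matched by hand. All 9 arrays entered 1 limma fit (lmFit, eBayes with trend; limma 3.58.1, R 4.3.3), tested on simulated data.

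Array values are given for 8 members fixed by name (Phgdh, Psat1, Psph, Asns, Atf4, Ddit3, Hspa5, Xbp1), any that passed, and the 3 with the smallest p per comparison and direction; of each list, the 2 with the smallest p. Deviations from the genotype means correlated at -0.0589 to 0.463 between same-numbered arrays of different genotypes. Between differently numbered ones they correlated at -0.507 to 0.275. In each genotype the beta-actin ratio fell from array 1 to array 3. The labels state no pairing by these numbers, and the main fit used none. Alternatives covered scale, added constant, filter, variance model, array weights, arrays left out, and probe set choice.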

Additional observations from a re-analysis of the deposited data

How the results depend on the processing

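Under the 22 settings run, 1 of which gave medians only, the sole member to pass was Aldh18a1 in heterozygous against wild-type with array weights, 1 of 28 members against 0 in the main fit. With those weights 134 of 13576 probe sets passed in that comparison, also against 0. Of 906 refitted log2 fold changes of the 17 members named by rule, 867 kept sign and call, and 38 turned sign without being called. The members' median log2 fold change ran over -0.03 to 0.03 in mutant against wild-type, -0.08 to 0.05 in heterozygous against wild-type and -0.02 to 0.12 in mutant against heterozygous. For scale, the members' median deviation in single arrays had an SD of 0.0997 within genotypes, which is not the spread of a fold change between genotypes. Counts over all probe sets moved too. In mutant against wild-type, 3 became 9 with array weights or without the 3 arrays numbered 1 and 5 with the replicate number as a block, and was 2 to 3 when leaving out 1 array. In heterozygous against wild-type, 0 (1087 at an unadjusted p under 0.05 in limma) became 134 with array weights, and leaving out 1 array gave 0 to 3, the 3 without heterozygous 3. In mutant against heterozygous, 3 became 5 with only those 2 genotypes and 8 with the replicate block, and 1 to 7 when leaving out 1 array, with 1 without heterozygous 1 or mutant 2 and 7 without heterozygous 3. The cause was not tested. The replicate block changed no call of a member. With 3 arrays a genotype, the size of change that could be missed differed by member: in mutant against wild-type the 95% interval in log2 was -0.13 to 0.23 for Gpt2, the narrowest, and -0.77 to 0.57 for Phgdh, the widest, and the 5 dim members have signals too low to read.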
